A study of Homo sapiens with 3 samples.

Results

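The zinc finger genes described here under the name of chromosome band 19q13.41 are a list of 38 genes of 1 tandem cluster. It is the cluster that holds ZNF616 and ZNF702P, and its genes were taken from the table by symbol. The band name is a label for the list, and the band of each member was not looked up. All 38 were found among the 16662 genes of the table, and all 38 passed the filter on low values used here, a mean of at least 1 CPM (reads scaled to a common library size), as did 13879 genes in all. The cluster was chosen on the measured values of ZNF616 and ZNF702P, which were at least 2-fold above the control in both knockdown libraries. Those values are therefore given as a description only, and the other members were chosen by their position beside them.

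The RNA came from H1975 cells, a long-cultured human line derived from a lung adenocarcinoma with mutated EGFR. The 3 libraries were transfected with the control siRNA siNC, with siHHLA3-1, or with siHHLA3-3, the latter pair being differently numbered small interfering RNAs against HHLA3. Transfection was done near 70% confluency, followed by 6 h in serum-free medium and 24 h in medium with 10% serum, in all 3 cultures. Each group is 1 library with a batch label of its own, so siRNA and batch cannot be told apart, no p-value is given for a ratio, and every interval below covers counting error only.

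Zinc finger genes of this kind encode proteins with a KRAB domain at the amino end and a row of C2H2 zinc fingers behind it. The fingers read DNA, often within a particular family of retrotransposons, and the KRAB domain recruits TRIM28 (KAP1), which brings the histone methyltransferase SETDB1 and HP1 proteins and so silences the bound locus. The genes multiplied by tandem duplication, chiefly on chromosome 19, and neighbours in a cluster are usually each other's closest relatives.

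The submitters' processing notes name hg19, whereas positions here are from GENCODE release 29 on GRCh38. There the members span 1.78 Mb of chromosome 19, from 51804816 (ZNF577) to 53580269 (ZNF331). There are 15 on the plus strand and 23 on the minus strand. Of the 38, 36 are annotated as protein coding and 2, ZNF321P and ZNF702P, as transcribed pseudogenes. Counted in the translated coding sequences of the 36, C2H2 fingers ranged from 7 (ZNF577, ZNF701 and ZNF766) to 26 (ZNF845) with a median of 13, and ZNF616 had 21. The core of a KRAB box was found by its residues in 33 of the 36, ZNF432, ZNF880 and ZNF83 being without a match in the longest annotated coding sequence.

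Promoter sequences from RefSeq (GRCh38.p14) were matched for 30 of the 38 members, with 43 start sites. Of these, 3 are shown because they head the gene that stood highest among those matched, its neighbour ZNF836, and ZNF615, which was below the control in both knockdown libraries. Each is the 250 bases before the start site on the minus strand, 5′ to 3′, with CpG dinucleotides in capitals; ZNF616 is at chr19:52139939-52140188, ZNF836 at chr19:52171622-52171871 and ZNF615 at chr19:52008212-52008461.
ZNF616: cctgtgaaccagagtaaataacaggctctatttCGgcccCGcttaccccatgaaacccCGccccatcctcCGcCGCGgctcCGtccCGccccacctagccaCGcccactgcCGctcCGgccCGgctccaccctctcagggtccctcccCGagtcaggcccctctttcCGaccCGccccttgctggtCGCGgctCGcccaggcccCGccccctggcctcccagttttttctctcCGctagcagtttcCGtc
ZNF836: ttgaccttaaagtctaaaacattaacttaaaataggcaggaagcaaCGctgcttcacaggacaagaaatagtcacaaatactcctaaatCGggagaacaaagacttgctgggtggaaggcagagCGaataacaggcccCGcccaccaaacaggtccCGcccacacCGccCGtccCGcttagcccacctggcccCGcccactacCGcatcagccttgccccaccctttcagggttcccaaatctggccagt
ZNF615: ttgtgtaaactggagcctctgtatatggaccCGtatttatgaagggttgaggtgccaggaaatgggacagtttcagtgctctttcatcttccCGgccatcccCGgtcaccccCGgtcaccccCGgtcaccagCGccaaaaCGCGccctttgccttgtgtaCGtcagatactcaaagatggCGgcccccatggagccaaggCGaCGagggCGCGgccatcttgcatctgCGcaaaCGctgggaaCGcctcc

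These windows held 21 CpG dinucleotides for ZNF616, 10 for ZNF836 and 17 for ZNF615. Over the 43 member promoters the median was 18 CpG (range 3 to 29), against 11 over all 35116 promoters of the same length, so the members' promoters were CpG-rich. The 6 letters GGGCGG, a GC box, searched on both strands, were in the first pair, 4 times in each, and not in the ZNF615 window. GGGCGG was present in 65.1% of the member promoters and in 42.6% of all promoters. CCAAT, likewise searched on both strands, was present in 23.3% and 32.0%. A match describes the letters and is not a site. Both motifs were picked after the sequences had been seen.

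The targeted gene was lower in both knockdown libraries. HHLA3 was at 5.99 CPM in the siNC library, 1.55 in the siHHLA3-1 library and 0.735 in the siHHLA3-3 library, which is 3.86-fold lower (95% counting interval 2.85 to 5.31) and 8.15-fold lower (5.13 to 13.6). Library totals ranged from 26950852 to 35069930 reads. Of 11 markers of lung epithelium the table lists 10, SFTPB being the exception. Their summed TPM (a level per transcript length) was 5240 (siNC), 5105 (siHHLA3-1) and 4315 (siHHLA3-3), and their median log2 ratios to siNC were 0.02, with 5 of 10 above 0, and -0.24, with 2 of 10 above 0. NKX2-1, the furthest below the control with siHHLA3-3, was at 65.7, 72.0 and 35.0 CPM. The 2 above 0 with siHHLA3-3 were MUC1, at 12.9, 30 and 21.4 CPM, and EGFR, at 324, 297 and 419 CPM. Of 8 markers of leukocytes, fibroblasts and endothelium it lists 2, COL1A1 and CDH5, whose summed TPM was 8.75, 20.9 and 6.09. The part of these markers' differences and of other cells in the results was not tested. In bulk RNA, fewer cells of a type and less RNA per cell cannot be told apart.

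The members were expressed at moderate levels. Their mean deposited TPM ran from 5.06 for ZNF577 to 244 for ZNF841, with a median of 31.1, against 10.7 for the other genes with a ZNF symbol and 18.6 for all genes above the filter. By TPM, ZNF841 stood at 210 with siNC, 265 with siHHLA3-1 and 257 with siHHLA3-3. ZNF432, whose protein has been linked to DNA repair, followed at 107, 140 and 117 TPM, and ZNF468 at 89.7, 115 and 116 TPM. ZNF28 had 66.1, 79.4 and 77.3 TPM. The next was ZNF880 with 76.7, 73.0 and 71.2 TPM. In this group of 5, only ZNF880 was not above its siNC level in the knockdown libraries. The lowest of the 38 besides ZNF577 was the pseudogene ZNF321P, at 6.51, 7.41 and 7.07 TPM.

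**Figure D1:**
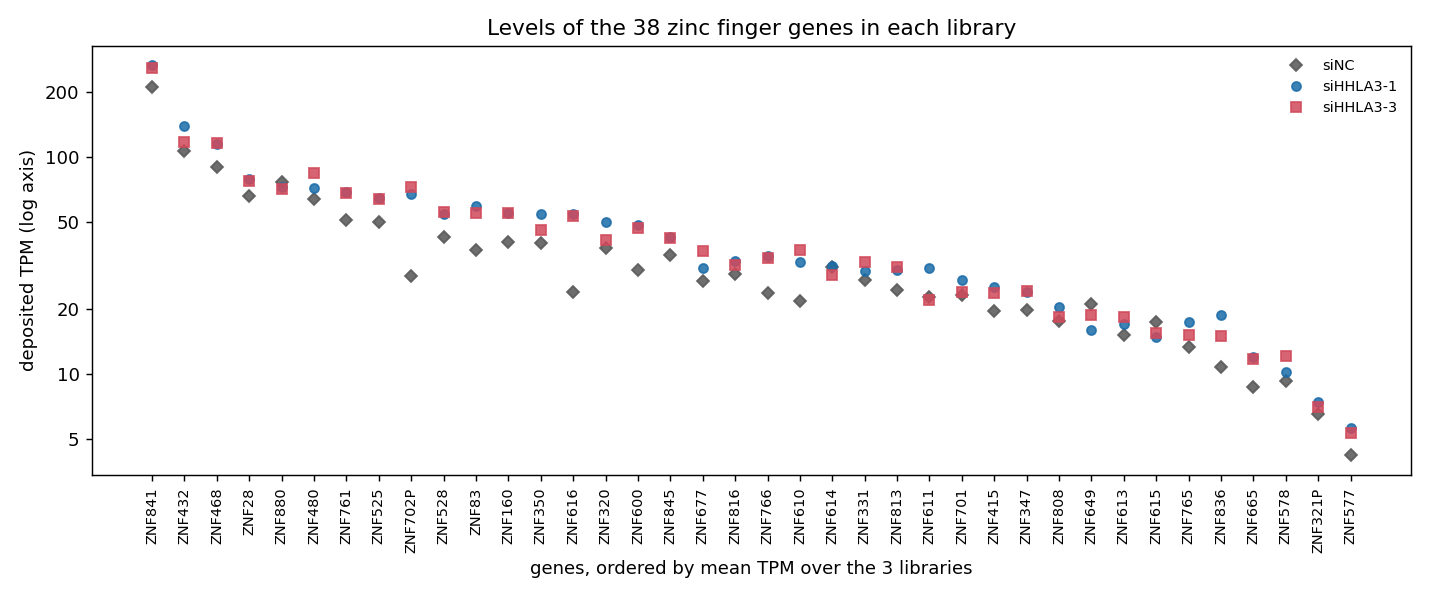
Deposited TPM of each of the 38 genes (log axis) in the siNC, siHHLA3-1 and siHHLA3-3 libraries, 1 point per library, ordered by mean TPM. ZNF841 leads with a mean of 244 TPM, ZNF577 is last at 5.06, and for most genes the siNC point is the lowest of the 3.

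Most members stood slightly higher in both knockdown libraries than in the control. Summed over the 38, the level was 2480 CPM (siNC), 3103 (siHHLA3-1) and 3003 (siHHLA3-3), so 1.25-fold and 1.21-fold above the control. Ratios were taken on the log2(CPM + 1) scale, which understates differences of low genes. On it the members' median ratio to siNC was 0.29 with siHHLA3-1 and 0.22 with siHHLA3-3, where the median of all genes was -0.01 in each. With siHHLA3-1, 34 of 38 members lay above 0 against 48.2% of all genes, and with siHHLA3-3, 32 of 38 against 48.5%. These comparisons share the siNC library, so the second is not independent of the first.

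Without ZNF616 and ZNF702P the sums still stood 1.21-fold and 1.17-fold above the control, and 32 and 30 of the other 36 members were above 0, with medians of 0.28 and 0.22. A counting interval wholly above 1-fold was found for 30 of 38 members with siHHLA3-1 and for 28 with siHHLA3-3, against 28.7% and 27.6% of all genes. Intervals wholly below 1-fold were found for 3 and 4 members, against 32.6% and 30.6% of all genes. Intervals narrow as counts rise. Every member had at least 126 counts in each library, while the filter admits genes at a mean of 1 CPM. These shares are thus not matched for counts, and the 30 and 28 include ZNF616 and ZNF702P. Large differences were few. Reaching 2-fold above siNC were 2 of 38 members with siHHLA3-1 (background 0.973% of all genes) and 2 with siHHLA3-3 (0.807%). They were ZNF616 and ZNF702P each time, which is the choice of the cluster and no result (both siRNAs together, 0.122%). At 2-fold lower there were 0 members with siHHLA3-1 (background 0.382%), 0 with siHHLA3-3 (1.48%) and 0 with both (0.0576%). At a threshold of 1.5-fold, 5 members were higher with siHHLA3-1 (background 5.03%) and 3 with siHHLA3-3 (3.65%), ZNF616 and ZNF702P included. Apart from that pair, which the choice of the cluster fixed, they were ZNF836, ZNF600 and ZNF83 with siHHLA3-1 and ZNF610 alone with siHHLA3-3. The 1.5-fold counts are thus no result about the members.

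**Figure D2:**
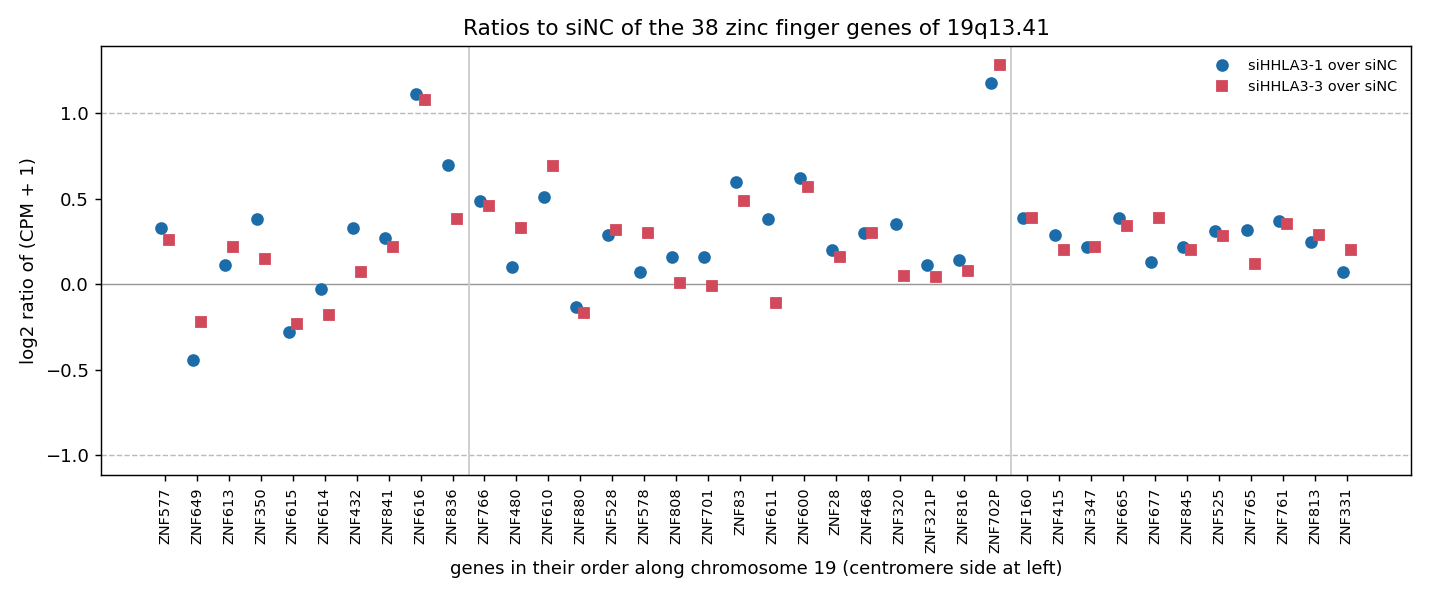
Log2 ratio of (CPM + 1) to siNC for the 38 genes in their order along chromosome 19, circles for siHHLA3-1 and squares for siHHLA3-3; dashed lines mark 2-fold and vertical lines part the 10 proximal, 17 middle and 11 distal genes. ZNF616 and ZNF702P alone pass 2-fold, and most other points lie between 0 and 0.7.

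The pseudogene ZNF702P (ENSG00000242779, chromosome 19, 52968251 to 53037898 on GRCh38, minus strand) had the highest ratios. Its level was 54.8 CPM (siNC), 125 (siHHLA3-1) and 135 (siHHLA3-3), from 1757, 4439 and 3669 counts. Both knockdown libraries were thus far above the control, by 2.28-fold (2.16 to 2.41) and 2.46-fold (2.32 to 2.61). Among all 13879 genes it ranked 63rd from the top with siHHLA3-1 and 47th with siHHLA3-3. ZNF616 (ENSG00000204611, 52113091 to 52139922, minus strand) had 34.3 CPM in siNC, 75.3 in siHHLA3-1 and 73.4 in siHHLA3-3 cells, or 2.20-fold (2.05 to 2.36) and 2.14-fold (1.99 to 2.31) higher. Its knockdown levels lay close together, with a fold of 0.975 between them (0.920 to 1.03).

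Both genes overlap another annotated transcript on the same strand, AC010328.3 for ZNF702P and AC011468.2 for ZNF616, neither of which is among the names in the table. Several transcripts inside the cluster are named there by Ensembl identifier only, so this does not show that either was left out. Of the distinct 50-base words in their transcripts, 3.50% for ZNF702P and 2.17% for ZNF616 also occur in a gene elsewhere, so most of their sequence is their own. ZNF836, the next gene along from ZNF616, stood at 15.0, 24.9 and 19.8 CPM, or 1.67-fold (1.49 to 1.87) and 1.33-fold (1.17 to 1.5) higher. ZNF836 was thus also above the control in both libraries, more so with siHHLA3-1. Its exons overlap AC011468.2 too, the transcript that ZNF616 overlaps. With overlapping genes counted, 13.2% of its 50-base words are shared, so its level is less certain.

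In the middle of the cluster 4 further genes stood at least 1.39-fold above the control in both knockdown libraries. ZNF610 had 22.7 CPM in siNC, 32.7 in siHHLA3-1 and 37.2 in siHHLA3-3 cells, or 1.44-fold (1.31 to 1.58) and 1.64-fold (1.49 to 1.81). ZNF600 had 61.5, 94.9 and 91.7 CPM, or 1.54-fold (1.46 to 1.63) and 1.49-fold (1.40 to 1.58). ZNF83 had 84.1, 128 and 119 CPM, or 1.52-fold (1.45 to 1.6) and 1.41-fold (1.34 to 1.48). ZNF766 had 50.7, 71.6 and 70.2 CPM, or 1.41-fold (1.33 to 1.51) and 1.39-fold (1.30 to 1.48). In each the knockdown libraries were on the same side of the control and outside its counting error. ZNF600 shares 10.8% of its 50-base words with genes elsewhere, ZNF611 above all, so its value and that of ZNF611 are less certain.

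A few members stood below the control, and 3 of these, ZNF649, ZNF615 and ZNF614, lie in the proximal part. ZNF649, a KRAB protein reported to repress AP-1 and serum response reporters, had the lowest ratio with siHHLA3-1, and ZNF615 that with siHHLA3-3. The CPM of ZNF649 were 26.9 (siNC), 19.5 (siHHLA3-1) and 22.9 (siHHLA3-3), which is 1.38-fold lower (1.25 to 1.53) and 1.17-fold lower (1.06 to 1.30). ZNF615 stood at 24.9, 20.4 and 21.0 CPM, or 1.22-fold (1.10 to 1.35) and 1.18-fold (1.06 to 1.32) lower. ZNF614, its neighbour, had 50.9, 49.9 and 44.8 CPM. With siHHLA3-1 the interval of the ZNF614 fold held 1 (0.915 to 1.05), and with siHHLA3-3 it did not (0.816 to 0.948). ZNF880 in the middle part had 83.5, 76.2 and 74.0 CPM, with folds of 0.913 (0.866 to 0.964) and 0.887 (0.837 to 0.940).

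By position, the 10 proximal members from ZNF577 to ZNF836 had median ratios of 0.30 with siHHLA3-1 and 0.18 with siHHLA3-3. They were also spread widely, from -0.44 to 1.11 and from -0.23 to 1.08, and 7 of 10 were above 0 in each comparison. The 17 middle members from ZNF766 to ZNF702P had medians of 0.29 and 0.30, with 16 and 14 above 0. The 11 distal members from ZNF160 to ZNF331 were the most even group: all 11 were above 0 in each comparison, between 0.07 and 0.39 with siHHLA3-1 and between 0.12 and 0.39 with siHHLA3-3. None of the 11 reached 1.5-fold. Adjacent genes of the cluster differed in ratio by a median of 0.24 with siHHLA3-1, and all pairs of members by 0.23. With siHHLA3-3 the same medians were 0.19 and 0.24. Next-door genes were thus about as unlike as distant ones with siHHLA3-1 and slightly more alike with siHHLA3-3.

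Among the distal genes, ZNF160, a KRAB protein reported to repress TLR4 in intestinal epithelium, stood at 101 CPM with siNC and 132 in each knockdown library, 1.31-fold higher in each (1.25 to 1.37). ZNF677, reported as silenced by promoter methylation in lung cancer, was expressed here at 73.6, 80.6 and 96.7 CPM, highest with siHHLA3-3. The imprinted gene ZNF331 had 69.1, 72.7 and 79.8 CPM, and its interval with siHHLA3-1 held 1 (0.994 to 1.11). ZNF761 had 84.0, 109 and 108 CPM, while its overlapping neighbour TPM3P9, a tropomyosin pseudogene, had 37.5, 35.0 and 45.9 CPM. ZNF415, whose isoforms were reported to act on p53 and AP-1 reporters, had log2 ratios of 0.29 and 0.20. In the proximal part ZNF350, the BRCA1-binding repressor ZBRK1, had 53.1, 69.5 and 59.0 CPM. In the middle part ZNF808, a repressor of MER11 retrotransposons needed for pancreas development, had 25.6, 28.6 and 25.7 CPM. Its interval with siHHLA3-3 held 1 (0.909 to 1.12).

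Between the knockdown libraries the members differed little. The median log2 ratio of siHHLA3-3 over siHHLA3-1 was -0.04, against 0.00 for all genes. Above 0 were 14 of 38 members, against 50.4% of all genes. None reached 2-fold in either direction (background 0.757% higher and 2.12% lower), and 0 were 1.5-fold higher (background 4.4%). The counting interval held 1-fold for 20 members, lay above it for 7 and below it for 11. Over all genes it lay above 1-fold for 31.6% and below it for 31.1%, shares that are not matched for counts. ZNF611 was the furthest apart, at 47.3 CPM (siNC), 61.6 (siHHLA3-1) and 43.9 (siHHLA3-3), a fold of 0.712 (0.663 to 0.764) between the knockdown libraries. ZNF611 was thus above the control with siHHLA3-1. With siHHLA3-3 its fold to the control was 0.928, and the interval just held 1 (0.86 to 1). ZNF836 came next, with a fold of 0.796 (0.714 to 0.887). In the opposite direction ZNF677 was 1.20-fold higher with siHHLA3-3 than with siHHLA3-1 (1.14 to 1.27).

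Other genes with a ZNF symbol, outside the list of members, were also above the control on balance, by less. They were taken by symbol and not by position. Genes inside the cluster, such as ZNF888 and ZNF137P, were therefore not set apart from them. Nor were RNAs named after a zinc finger gene, such as ZNF350-AS1 and ZNF528-AS1. The 445 other ZNF genes above the filter had median ratios of 0.09 with siHHLA3-1 and 0.14 with siHHLA3-3, with 67.0% and 72.6% above 0. For the 204 of the 445 on chromosome 19 the medians were 0.11 and 0.14, and for the 241 on other chromosomes 0.05 and 0.14. Of the 445, 1 was 2-fold higher and 1 lower with siHHLA3-1, and 4 were higher and 1 lower with siHHLA3-3. With both siRNAs 1 was higher and 0 lower. The 1 higher with both was ZNF554, at 14.8, 41.5 and 48.7 CPM. Its folds, 2.80 and 3.28, were above those of ZNF616 and ZNF702P. A list of 29 ZNF genes from the short arm of chromosome 19 had medians of 0.23 and 0.14, with 79.3% and 86.2% above 0. The 4 of its genes highest by the mean of both ratios had 0.60 and 0.43 for ZNF429, 0.52 and 0.47 for ZNF708, 0.55 and 0.37 for ZNF493, and 0.31 and 0.53 for ZNF90. ZNF91, which represses SVA retrotransposons, had 101, 154 and 109 CPM. Genes of chromosome 19 without a ZNF symbol had medians of 0.04 and 0.03. With 1 library a group the difference between these gene groups could not be tested, so the shift is not shown to be particular to 19q13.41.

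**Figure D3:**
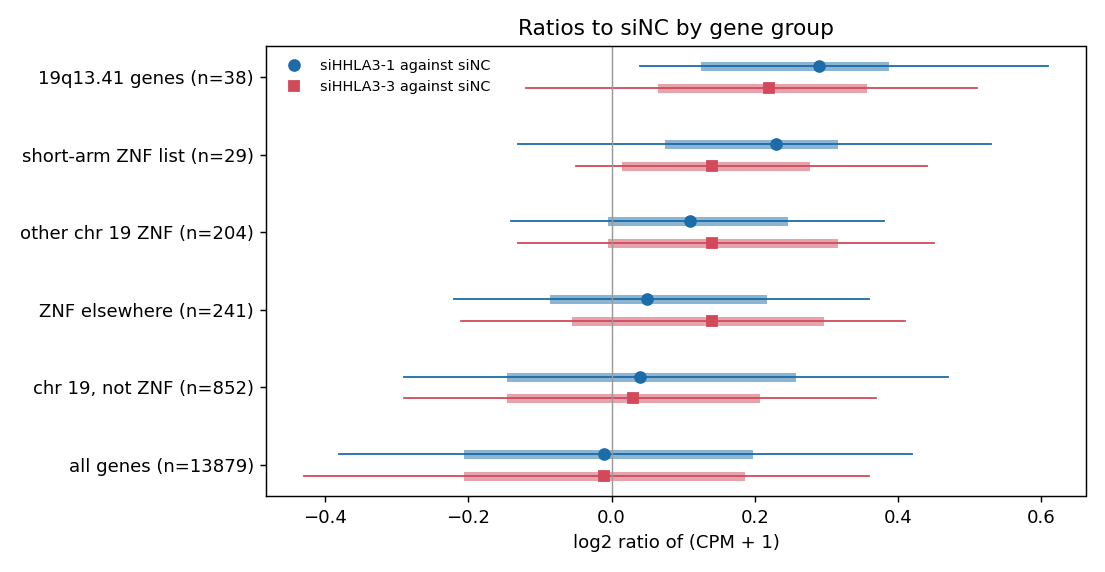
Log2 ratio of (CPM + 1) to siNC by gene group; the symbol is the median, the thick bar the 25th to 75th and the thin line the 10th to 90th percentile of genes, which are not replicates. The 19q13.41 genes have medians of 0.29 and 0.22, the other ZNF groups lie between 0.05 and 0.23, and all genes lie at -0.01.

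Of the other transcripts inside the cluster, the table lists 25 and 18 passed the filter, with medians of 0.11 and 0.09. Among them are a zinc finger gene and a zinc finger pseudogene outside the list of 38: ZNF888, at 56.4, 67.4 and 61.2 CPM, and ZNF137P, at 20.5, 21.3 and 18.4 CPM. PPP2R1A, the scaffold subunit of protein phosphatase 2A, which separates the proximal from the middle genes, stood at 721, 674 and 737 CPM. Its ratios were -0.10 and 0.03. ZNF528-AS1, which starts beside ZNF528 on the opposite strand, had 21.1 CPM (siNC), 29.9 (siHHLA3-1) and 36.4 (siHHLA3-3), while ZNF528 had 107, 131 and 134 CPM. The retroviral envelope gene ERVV-2, between ZNF702P and ZNF160, had 8.82, 17.8 and 12.8 CPM, and ERVV-1, on the strand opposite ZNF702P and within its span, had 24, 57 and 36 counts. Both were above the control in both knockdown libraries, ERVV-1 at low counts. Neighbours without zinc fingers that flank the cluster had ratios of 0.26 and -0.01 for MYADM, 0.52 and -0.21 for CACNG8, 0.15 and 0.07 for NLRP12, and -0.25 and -0.93 for FPR1.

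The partners through which KRAB zinc fingers silence DNA were not shifted upwards. The list of 19 co-repressor genes had median ratios of -0.09 (siHHLA3-1) and -0.10 (siHHLA3-3), with 5 and 8 of 19 above 0 and 0 at 2-fold. TRIM28 itself stood at 1631, 1235 and 1463 CPM. The HP1 gene CBX5 had 209, 146 and 178 CPM, and SETDB1 47.1, 48.3 and 48.4 CPM. Of the NuRD complex, MTA2 had 142, 122 and 101 CPM and MTA1 81.1, 95.1 and 93.6 CPM. Of 20 other silencing genes 19 were listed, with medians of -0.04 and 0.03 and 0 at 2-fold. Among them the DNA methyltransferase DNMT3B was higher, at 70.0, 130 and 112 CPM, as was the chromatin remodeller ATRX at 97.7, 129 and 127 CPM. The H3K9 methyltransferases SUV39H1, at 32.6, 20.7 and 23.5 CPM, and EHMT2, at 51.4, 41.4 and 44.5 CPM, were lower.

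Several features of the genes move with measurement. Members were poorer in GC, with a median of 41.5% in the longest transcript against 48.7% for all genes, so a trend of the ratios on GC content and gene length was removed as an alternative chosen after the data were seen. The members' medians were then 0.31 and 0.29, with 35 and 33 of 38 above 0, and all genes had medians of -0.03 and 0.00. The 29 short-arm ZNF genes had 0.26 and 0.22, with 82.8% and 89.7% above 0. The 445 other ZNF genes had 0.09 and 0.18, with 66.7% and 75.5% above 0. ZNF616 kept ratios of 1.15 and 1.14, and ZNF702P of 1.22 and 1.37. Exons overlapped those of another annotated gene in 22 of 38 members, and 8 shared at least 5% of their 50-base words with genes elsewhere, up to 11.3% for ZNF808. With overlapping genes counted too, the shared part reached 75.2% for ZNF320, 55.8% for ZNF468 and 40.9% for ZNF321P. Whether reads were counted by strand is not given in the sources used here, and the levels of all these members are less certain. The 13 members with neither an exon overlap nor 5% shared elsewhere had medians of 0.29 and 0.22, with 10 of 13 above 0 in each comparison. Across members, which share the libraries, the number of fingers and the ratio had Pearson correlations of 0.23 and 0.13 over 36 genes (Spearman 0.14 and 0.07), which is no relation to speak of.

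**Figure D4:**
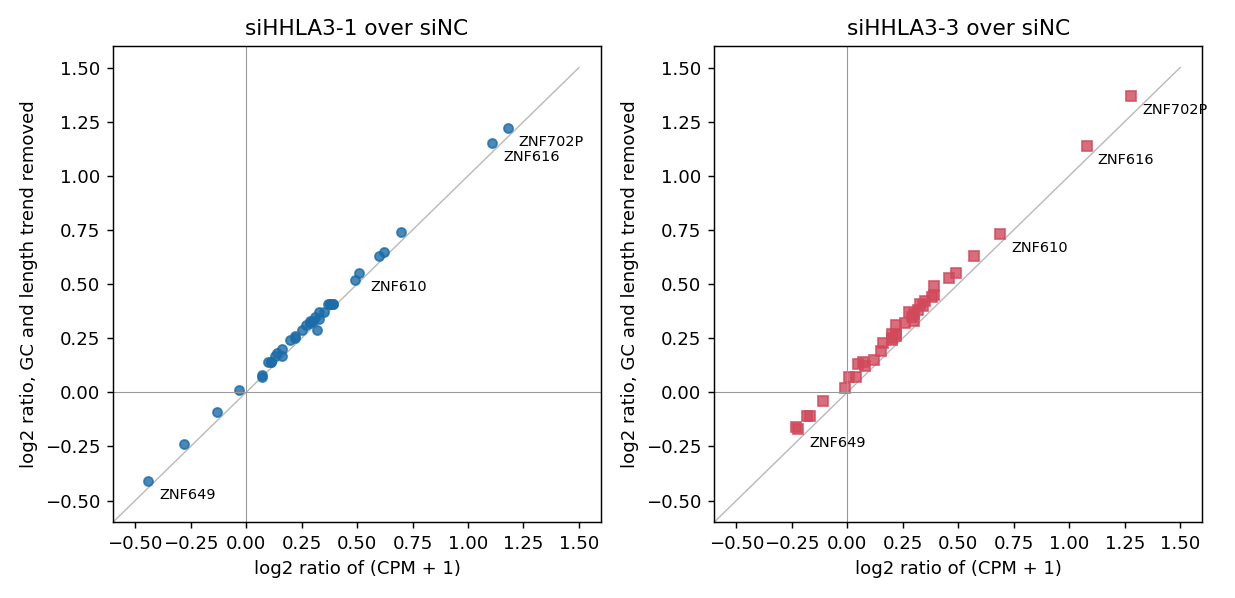
Log2 ratio of (CPM + 1) to siNC of the 38 genes before (horizontal) and after (vertical) removal of a trend on GC content and length, with the line of equality, for siHHLA3-1 and siHHLA3-3. Nearly all points lie on or slightly above the line, and ZNF616 and ZNF702P stay apart from the rest.

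The 7-base sequences CAGAATG and GTGAACT, which a scan of these same ratios had singled out in 3′ UTRs of genes lower with siHHLA3-1 and siHHLA3-3, were looked up in the annotated 3′ UTRs of 35 members. CAGAATG was carried by 8 of 35 members (22.9%) and by 22.3% of all genes searched. The 8 had a median ratio of 0.08 with siHHLA3-1, with 5 above 0, and the 27 without it 0.31, with 26 above 0. Over all genes the medians with siHHLA3-1 were -0.08 with CAGAATG and -0.01 without it. ZNF649, ZNF615 and ZNF614 were the carriers below 0, and ZNF880, the remaining member below 0, did not carry it. GTGAACT was carried by 11 members (31.4%) against 15.3% of all genes. With siHHLA3-3 those 11 had a median of 0.20 and the 24 others 0.24, whereas over all genes the medians were -0.17 with and 0.00 without it. Of the 11 carriers 9 were above 0 with siHHLA3-3. The part of these sequences in the members' levels was not tested, and since they were chosen on these ratios they support nothing here.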

How the data were processed

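Total RNA of 3 H1975 libraries was sequenced, 1 per group. The deposited counts are whole reads per gene, not normalised, and the deposited CPM are these counts scaled to the library total, per the file headers and values. The deposited TPM and FPKM were scaled for gene length by the authors, per the file headers. The submitters' processing notes name hg19, HISAT2, HISAT, TopHat2 and Bowtie2. The counter, annotation and strand setting are not given in the sources used here. Listed genes left out 0.305% to 0.355% of each library total, and 3 counts correspond to 0.0845 to 0.110 CPM.

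Counts were scaled with TMM factors (edgeR 4.0.16, R 4.3.3) to CPM, with a pseudocount of 1 CPM in log2 ratios and a mean of at least 1 CPM as filter. Folds are ratios of CPM without the pseudocount. Intervals are exact at 95% (binomial for folds) and cover counting error only, since reads are not independent molecules. A gene counted when its ratio reached 2-fold, with no test. Positions, transcripts and 3′ UTRs are from GENCODE release 29 (GRCh38) and promoters from RefSeq. A finger was counted as 2 cysteines 2 residues apart, 12 residues, then histidines 3 to 5 apart (or a final cysteine). Alternatives were DESeq2 1.42.0 size factors and further settings given at the end. The 2-against-1 fits were tested on simulated data. Genes given with values in every library are the members at 2-fold, the 3 highest and 3 lowest by mean ratio, the 5 highest by TPM and those with a printed promoter; the others named were added after their values were seen. Of other lists, those with the largest mean ratios were named, with SETDB1 and ZNF91 added, and a flanking neighbour is not reported here. The members and lists were chosen with earlier results of these data known. The remaining steps ran in Python 3.11.15 with pandas 2.3.3, scipy 1.17.1 and numpy 2.4.6.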

Additional observations from a re-analysis of the deposited data

How the results depend on the processing

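Under scaling by DESeq2 size factors or by library totals, with the authors' TPM or FPKM, with a pseudocount of 0.1, with the filter dropped or raised to 5 CPM, and after removal of the GC and length trend (added after the data were seen), the members' median ratio ranged from 0.29 to 0.34 with siHHLA3-1 and from 0.22 to 0.29 with siHHLA3-3, and the 2-fold counts stayed at 2 higher and 0 lower for each siRNA. With the authors' TPM the members had medians of 0.34 and 0.28. There the median of all listed genes was 0.05 in each comparison, against -0.01 for all genes in the main setting. At a 1.5-fold threshold 5 members were higher with siHHLA3-1 in place of 2, because the threshold is lower. When the siHHLA3 libraries were taken as 2 samples against 1, the single siNC library being assumed to vary like the others, edgeR's quasi-likelihood test called 0 members at an adjusted p under 0.05 and DESeq2 called 0, against 2 by size with both siRNAs. At an unadjusted p under 0.05 these tools gave 3 and 2 members, all higher: ZNF616 and ZNF702P, on which the cluster was chosen, and with edgeR also ZNF600. Of the 13879 genes, 222 were higher and 127 lower at that level with edgeR, and 161 and 69 with DESeq2. Over all genes tested they called 0 higher and 1 lower, and 3 higher and 2 lower. No paired analysis was possible because each group holds 1 library. Levels near 3 counts are not resolved at this depth, but no member was below 126 counts in any library. Without replicates, the spread between cultures of 1 group is unknown.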
